A study of Drosophila melanogaster with 3 samples.

Results

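The starts of 10 genes that encode insulator and boundary proteins were examined for binding by BEAF-32, itself one of them: BEAF-32, CTCF, su(Hw), Trl, Dref, pita, ZIPIC, Cp190, mod(mdg4) and Chro. They were taken by symbol from the Ensembl annotation of the fly genome, and all 10 were found among its 13945 protein-coding genes. That rule uses no measured value. Binding was measured by chromatin immunoprecipitation and sequencing in whole Drosophila melanogaster embryos collected from 0 to 14 h, males and females pooled. The line carries a transgene insertion that gives BEAF-32 a green fluorescent protein at its C terminus, and an antibody to that tag was used. Nothing in the sources used here gives the length or the place of the insertion, or whether untagged BEAF-32 was also made. All 3 biological replicates belong to that single group, so there is no untagged or mutant group to compare with, and a whole embryo mixes many cell types and stages. Chromatin was sheared to fragments of 200 to 800 bp.

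Insulator proteins sit at the borders between chromatin domains and near gene starts, where they limit contacts between enhancers and promoters. BEAF-32, the boundary element associated factor, binds clustered copies of the short core CGATA. CTCF, Su(Hw), Pita and ZIPIC are zinc-finger proteins that each bind their own DNA motif. The GAGA factor, made by Trl, binds GA repeats, and Dref binds the DNA replication-related element, a palindrome that contains the core in both directions. Cp190 and Mod(mdg4) are cofactors with BTB domains that such DNA-binding proteins recruit, and Chromator, made by Chro, is a chromodomain protein found with BEAF-32 at many of its sites.

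The authors' lists give each region a signal and a summit, the position of its highest enrichment. The list after the irreproducible discovery rate (IDR) step, a filter for reproducible summits, held summits in 5249 regions on the dm6 build. Relaxed lists, which also hold weak regions, had 30000 summits for the pooled replicates and 26497, 30000 and 30000 for replicates 1, 2 and 3. Read depth is not given in these lists, the scale of the signal is not stated, and signals were therefore compared between lists only as ranks, with rank 1 the strongest. A start counted as bound where the IDR list had a summit at most 500 bp away, a gene was bound if any of its starts was, and the strongest such summit is called its main summit. Replicate summits were matched to it within 250 bp.

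The DNA under the main summits shows how the core was arranged at the members' starts. Each run below is 25 bases on the member's own strand, written 5′ to 3′ from the RefSeq genome of the dm6 build. Capitals mark CGATA or its reverse complement TATCG. In CTCF, Cp190 and mod(mdg4) they overlap in the palindrome TATCGATA, the Dref element, while ZIPIC had a pair of cores separated by 2 bases and Dref itself had a single core and no palindrome.
CTCF, 3L:7356717-7356741, minus strand: atcgaacTATCGATAgctggcggta
Cp190, 3R:15275231-15275255, minus strand: atcgcatggcTATCGATAgctgccg
mod(mdg4), 3R:21377438-21377462, minus strand: tttaagcTATCGATAtattgtcact
Dref, 2L:9967232-9967256, minus strand: tttccccagcTATCGattggtgatg
ZIPIC, 3R:30036863-30036887, minus strand: cgtCGATAacCGATAgctgtgcaat
Chro, 3L:22878882-22878906, minus strand: agtttaaagcTATCGacaggcaata
Trl, 3L:14758395-14758419, minus strand: ataccggatcCGATAgttatagaac
The core at the centre of each run lay 16 bp before the CTCF start, 2 bp before the Cp190 start, 49 bp before the mod(mdg4) start, 15 bp before the Dref start and 5 bp before the ZIPIC start. In Chro it lay 90 bp after the start, within the 5′ untranslated region. In Trl, which had 2 cores, the one shown lay 445 bp before the start, in an intron of a longer transcript.

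The main summit of su(Hw) is shown in full because it was the only one with no core. Its window of 201 bp lies in the intergenic DNA between su(Hw) and the gene Polr2I.
su(Hw), 3R:14308747-14308947, minus strand: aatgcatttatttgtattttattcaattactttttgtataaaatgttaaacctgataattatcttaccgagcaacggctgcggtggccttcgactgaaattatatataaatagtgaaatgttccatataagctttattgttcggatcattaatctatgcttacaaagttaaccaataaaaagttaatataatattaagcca
No capitals appear in it, since neither orientation of CGATA was found.

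All 10 members were bound at a start in the IDR list, whereas 6092 of the 13945 coding genes, 43.7%, were bound by the same rule. Taking from each replicate only its strongest summits, as many as the IDR list holds, 10 members were bound in replicate 1, 9 in replicate 2 and 10 in replicate 3, a mean of 9.67 ± 0.577 (SD, n = 3). The shares of all coding genes in those lists were 42.9%, 39.5% and 42.2%, a mean of 41.5% ± 1.77 (SD, n = 3). In all, 9 of the 10 were bound in every replicate, beside 38.6% of all genes. The exception was su(Hw), whose summits ranked 6343 and 7441 in replicate 2, beyond the number of summits taken. The members were chosen as a family with earlier results on these data known, so the counts describe them and carry no test.

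The main summits fell into 6 strong ones, all within the first 1500 ranks in every replicate, and 4 weaker ones. The share of all bound genes within that limit was not counted, so the split only describes the members. The strong ones belonged to BEAF-32, pita, Cp190, mod(mdg4), CTCF and Dref, and the weaker ones to ZIPIC, Chro, su(Hw) and Trl. The median rank of the 10 members in the IDR list was 934.5, and the median over the main summits of all 6092 bound genes was 2233. In the separate replicates the members' medians were 1079.5, 819.5 and 939, against 2290, 2476 and 2300 for all bound genes with a match.

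The gene of BEAF-32 itself had the strongest mean rank. Its main summit ranked 255, 407 and 266 in replicates 1, 2 and 3, a mean of 309 ± 84.8 (SD, n = 3). For pita the ranks were 394, 399 and 345, a mean of 379 ± 29.8. For Cp190 they were 414, 410 and 421, a mean of 415 ± 5.57, the tightest of the 10. For mod(mdg4) they were 494, 319 and 449, a mean of 421 ± 90.9. The ranges of BEAF-32 and pita overlapped each other, and that of mod(mdg4) overlapped all the others of this group, so those neighbours are not ordered beyond the spread between replicates. Cp190 ranked below both BEAF-32 and pita in every replicate.

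CTCF ranked 1009, 802 and 947, a mean of 919 ± 106 (SD, n = 3). Dref ranked 1150, 837 and 931, a mean of 973 ± 161. These 2 genes overlapped each other, lay below the 4 strongest members in every replicate and lay above the remaining 4 in every replicate.

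ZIPIC ranked 3176, 3687 and 3305, a mean of 3389 ± 266 (SD, n = 3). Chro ranked 2727, 4252 and 3262, a mean of 3414 ± 774. For su(Hw) the ranks were 4249, 6343 and 4314, a mean of 4969 ± 1191, and for Trl they were 5158, 5032 and 5134, a mean of 5108 ± 66.9. ZIPIC and Chro overlapped, as did su(Hw) and Trl, and the ranges of Chro and su(Hw) met at their ends. Chro and su(Hw) both had their weakest rank in replicate 2, by a wide margin, and Trl was nearly level across the 3 replicates. The SD of the 3 ranks divided by their mean had a median of 0.140 over the members and 0.104 over all bound genes.

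**Figure D1:**
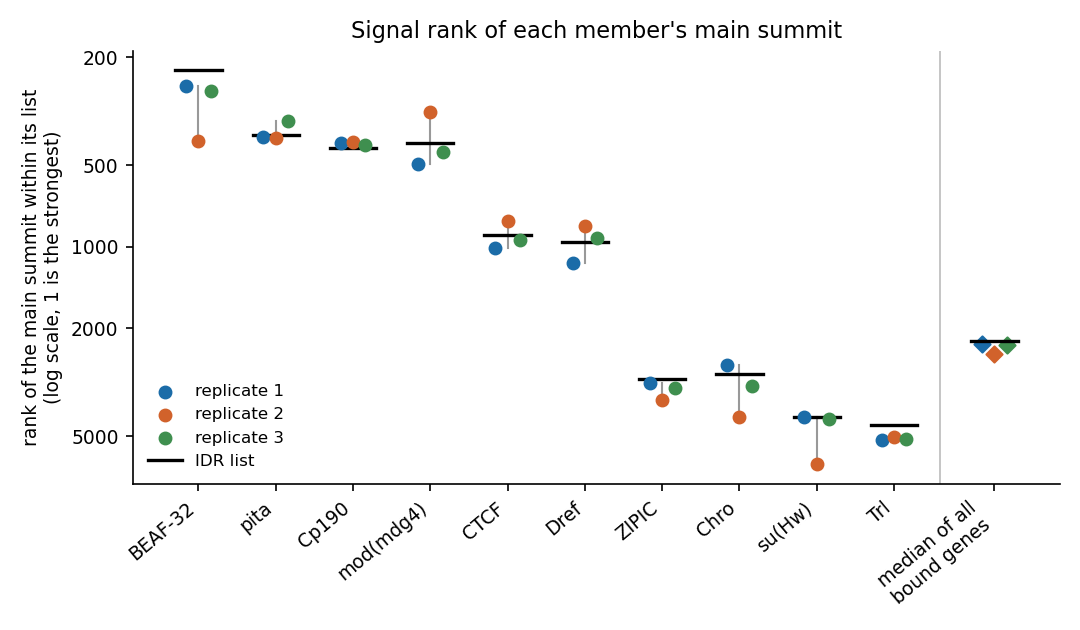
Rank of each member's main summit (vertical log axis, 1 the strongest) in replicates 1, 2 and 3 (points) and in the IDR list (bar), with the grey line spanning the replicates; the last column gives the medians over all bound genes. The 6 strong members lie above the medians of all bound genes in all replicates, and ZIPIC, Chro, su(Hw) and Trl lie below them.

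Main summits of the members lay close to a start, and fewer of them than of other genes' lay upstream. Only 5 of the 10 lay upstream of the nearest own start, against 91% of the bound genes. The signed distance had a median of 2 bp over the members, and a median of -69 bp with quartiles of -153 and -31 bp over all bound genes, where negative values are upstream. The unsigned distance had a median of 44 bp over the members and 73 bp over all bound genes. The downstream summits were those of BEAF-32, by 216 bp, Chro, by 51 bp, Dref, by 37 bp, CTCF, by 9 bp, and pita, by 7 bp. The CTCF summit lay downstream in every replicate, by 8, 19 and 13 bp, and that of pita lay 0, 15 and 21 bp downstream. ZIPIC, with its summit 3 bp upstream in the IDR list, changed side, with distances of 5, -3 and -11 bp in replicates 1, 2 and 3. The main summits of CTCF, Chro, Dref and pita, 4 in all, fell in a 5′ untranslated region. The 4 of Cp190, mod(mdg4), su(Hw) and ZIPIC fell in intergenic DNA, that of BEAF-32 in a coding exon and that of Trl in an intron.

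**Figure D2:**
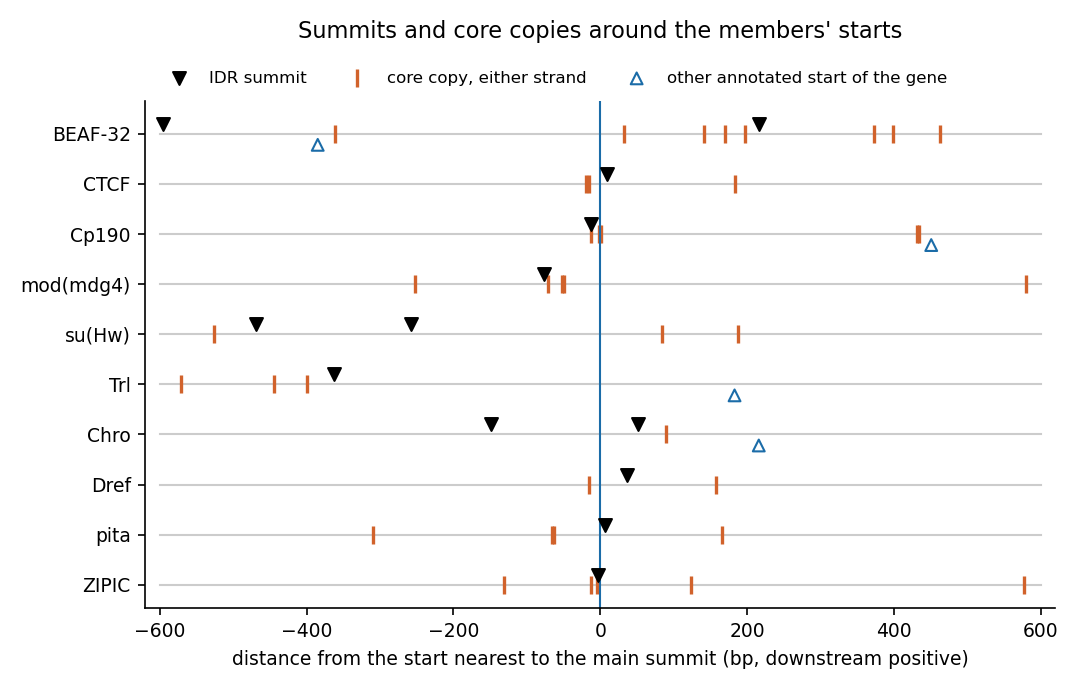
Positions of IDR summits (black triangles), core copies on either strand (orange ticks) and other annotated starts (open triangles) against the start nearest to each main summit, in bp with downstream positive; each row is 1 gene read from left to right. Summits of CTCF, Cp190, pita and ZIPIC sit within 12 bp of the start, while those of su(Hw) and Trl are 258 and 363 bp upstream.

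The 10 genes have 19 annotated starts, of which 17 had an IDR summit within 500 bp and 9 within 100 bp. Some of these starts share a summit, as both starts of Cp190 do. The share over all coding starts was not counted. From 1000 bp before each gene to 1000 bp after it, the IDR list held 27 summits, 17 of them within 500 bp of a member's start. Of the other 10, 8 lay within 500 bp of a start of another coding gene. Some of these 8 lay inside mod(mdg4), at starts of its precursor genes described below. The share of all IDR summits that lay by a coding start was not counted. The same windows held 61 summits in the pooled relaxed list and 52, 77 and 59 in replicates 1, 2 and 3. Every list kept summits at least 199 bp apart, so closer sites could not appear separately. BEAF-32, Chro, pita, su(Hw) and Trl, 5 of the 10, had more than 1 IDR summit at their own starts, against 22.3% of bound genes. More starts give more places for a summit, and the 13945 coding genes have 19607 distinct starts, fewer per gene than the members. In su(Hw), Chro and pita, at least 1 of these summits lay nearer to a neighbour's start than to an own start.

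BEAF-32 (FBgn0015602, 2R:14770469-14772630, plus strand) had an IDR summit near each of its 3 annotated starts, and all of them fell in a single deposited region together with a summit of the neighbour. At the first start, of transcript RA, the summit lay 32 bp downstream, in the 5′ untranslated region at position 14770501, with rank 430 in the IDR list and 218, 536 and 387 in the replicates. The second, at position 14770705, lay 211 bp before the RC start, with rank 925 and replicate ranks 1074, 1813 and 1339. The strongest, at 14771517, lay in a coding exon 216 bp past the RB start, with rank 224. Which of the starts was the stronger depended on the replicate: the RA summit had the higher signal in replicate 1, with 3222 against 3022 at RB, and RB led in replicates 2 and 3, with 1895 and 3004 against 1676 and 2618 at RA. Cores were uneven among these IDR summits, with 3 copies at the RB summit, 1 at RA and none at the second. In replicate 2 the match of the second summit was nearest to RA, 221 bp past that start. That replicate alone listed a further summit 22 bp before the RC start, with rank 3250 and 1 core. The fourth IDR summit of the region, rank 2418, lay 53 bp before the start of Spred, an inhibitor of Ras signalling transcribed the other way. It held both a core and the string GGTCACACT.

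CTCF (FBgn0035769, 3L:7353578-7356713, minus strand) had a single start and a single IDR summit, at position 7356704. The replicate summits matched to it lay within 10 bp. Replicates 1 and 2 each listed another summit at this start, 207 and 208 bp upstream, with ranks 6778 and 3510. A further 3 summits of the pooled relaxed list around the gene all had ranks beyond the number of summits in the IDR list.

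The gene su(Hw) (FBgn0003567, 3R:14304455-14308589, minus strand) had its 2 IDR summits in the gap of 500 bp that separates it from Polr2I, a subunit of RNA polymerase II read in the opposite direction. The stronger, at position 14308847 and rank 4226, lay 258 bp before su(Hw) and 242 bp before Polr2I, near the middle. The weaker, at position 14309058 and rank 6018, lay 31 bp before Polr2I and held the only core of the pair, with GGTCACACT beside it. Its ranks in the replicates were 4631, 7441 and 5332. The windows at its summits in replicates 2 and 3 held GGTCACACT but no core. No IDR summit lay closer to su(Hw) than 258 bp, and with a limit of 250 bp it was the 1 member no longer bound.

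Trl (FBgn0013263, 3L:14747929-14761049, minus strand) had the weakest main summit of the 10 in the IDR list. Its 4 annotated starts spread over several kilobases. The start shared by 7 transcripts, at position 14757962, had its nearest IDR summit 363 bp upstream at 14758325, with rank 4559. The RJ start had a summit 161 bp downstream near the bottom of the IDR list, with rank 6041 and replicate ranks of 6285, 16116 and 6007. The RA start had no IDR summit within 500 bp, the nearest being 546 bp away. At the outermost start, of RF, the nearest pooled summit ranked only 9121, and the replicate summits there ranked 9441, 12706 and 12088. Stronger summits lay elsewhere around Trl: rank 2879 at position 14759501, in an intron 1539 bp upstream of the nearest start and with no core, and rank 2114 at position 14761953, beyond the RF start. This summit lay 75 bp before Mgat4a, a glycosyltransferase gene, and 904 bp upstream of RF.

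Dref (FBgn0015664, 2L:9964147-9967229, minus strand) had its main summit at position 9967192, with replicate shifts of 0, 11 and 1 bp. A second IDR summit in its window, rank 5009, lay past the 3′ end of Dref, in the 5′ untranslated region of CG5850 and 53 bp before an inner start of that gene. The gene pita (FBgn0034878, 2R:23548967-23554712, minus strand) had a summit at each of its 2 starts. The RA summit, at 23554705, had rank 389, and the RB summit, at 23551288, had rank 837 and lay 263 bp past the start. The RB summit ranked 1098, 597 and 853 in the replicates, below RA in all of them. It lay only 25 bp before Dcp-1, a caspase gene read in the opposite direction. A further summit just past the 3′ end of pita, at 23548076, was the strongest near any member, with rank 37 and replicate ranks of 43, 28 and 39, and it lay within 500 bp of the starts of levy and wmd. ZIPIC (FBgn0039740, 3R:30035240-30036870, minus strand) had 1 start and 1 IDR summit, at 30036873, 3 bp before the start.

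Among the cofactors, Cp190 (FBgn0000283, 3R:15270432-15275241, minus strand) had 1 IDR summit, at position 15275253. It lay 12 bp before the RA start and 463 bp before the RB start. Replicate 2 listed another summit, at 15275450 with rank 1082, 209 bp before the RA start and 72 bp before CG4338. A further 6 pooled summits around Cp190 had ranks beyond the number of summits in the IDR list. Chro (FBgn0044324, 3L:22873702-22878984, minus strand) had 3 summits around 3 starts. The strongest, at 22878933, lay 51 bp past the RE start, the next, rank 4827, lay 13 bp past the RA start, and the last, rank 4928, lay 44 bp inside Ssl1, which encodes a subunit of the general transcription factor TFIIH. The RB, RC and RD transcripts share a start that had no summit of its own, the nearest being the strongest one, 165 bp upstream.

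The gene mod(mdg4) (FBgn0002781, 3R:21350846-21377401, minus strand) makes many protein isoforms by trans-splicing, in which a common first part made from its main start is joined to different last exons. The annotation lists 23 precursor genes, named pre-mod(mdg4), for those last exons, at 7 distinct starts inside the gene. The main summit, at 21377477, lay 76 bp before the common start, and replicate 1 listed a second summit 271 bp before that start, with rank 1597. Besides the main summit, 4 IDR summits lay inside the gene, more than 500 bp from its own start. Such an internal summit was found in 2 members, mod(mdg4) and Trl, and in 4.27% of all coding genes. These 2 are the longest of the members, a longer gene has more room for such a summit, and gene length was not taken into account. All 23 precursor genes were bound, but their starts share 3 summits, so they are not separate cases. Without them, 43.6% of the other coding genes were bound.

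The strongest internal summit of mod(mdg4), at position 21360131, had rank 1172 in the IDR list and 1239, 1152 and 1129 in the replicates. It lay 45 bp before the start of pre-mod(mdg4)-T and pre-mod(mdg4)-Z, which are read against mod(mdg4), and 363 bp before a start shared by 8 precursors read with it. The next, at 21365495, ranked 2661 and lay 7 bp before a start of pre-mod(mdg4)-E, with replicate ranks of 2777, 3207 and 2659. Another, at 21373587, ranked 3124 and lay 12 bp before the start of pre-mod(mdg4)-AA, pre-mod(mdg4)-N and pre-mod(mdg4)-O, with replicate ranks of 3149, 4254 and 3263. The last, at 21376434, lay 967 bp into the gene near no start, with rank 2830 and 2 copies of GAGAG. Past the 3′ end of mod(mdg4), a summit of rank 4587 lay 315 bp before the gene aus. A start of pre-mod(mdg4)-U and pre-mod(mdg4)-V was 2634 bp from any IDR summit. The strongest of these internal summits was the only one of the 4 with a core, and it is shown beside the main summit, with the cores in capitals, because both lay at starts that contribute to isoforms of the same protein.
mod(mdg4) common start, 3R:21377402-21377577, minus strand: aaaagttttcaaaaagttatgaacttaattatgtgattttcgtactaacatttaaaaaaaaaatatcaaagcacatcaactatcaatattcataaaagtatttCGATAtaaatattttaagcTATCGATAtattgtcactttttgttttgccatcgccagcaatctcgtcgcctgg
mod(mdg4) internal summit, 3R:21360031-21360175, minus strand: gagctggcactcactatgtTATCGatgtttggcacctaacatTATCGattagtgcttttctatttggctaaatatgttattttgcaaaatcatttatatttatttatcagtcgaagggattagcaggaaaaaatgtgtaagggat
The common start had a core and a Dref element, and the internal summit had 2 separate cores and no Dref element.

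**Figure D3:**
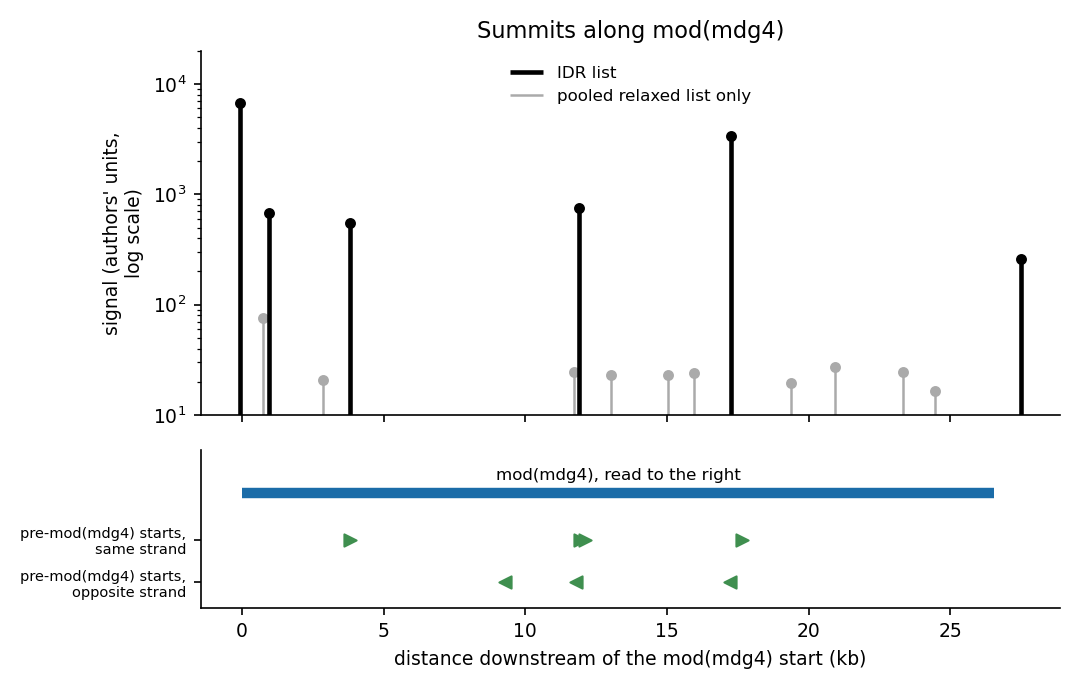
Summits of the IDR list (black) and of the pooled relaxed list alone (grey) along mod(mdg4), with signal on a log axis against distance downstream of its start in kb; arrowheads below mark the starts of the precursor genes on the same or the opposite strand. The common start and the summit 17.3 kb downstream stand highest, with signals of 6729 and 3358, and the grey summits are all below 100.

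In all, 5 members had another coding gene with a start within 500 bp of the main summit, against 59.4% of bound genes. Also 5 of the 10 had a divergent coding neighbour within 1000 bp upstream of a start, against 36.2% of coding genes. Cp190 was paired with CG4338, 281 bp away. Chro was paired with Ssl1, 105 bp away. Dref was paired with RpL13, a ribosomal protein gene 84 bp away. The partner of su(Hw) was Polr2I, at the distance of 500 bp given above. These 4 pairs are divergent, with the summit of Dref lying 121 bp before RpL13 and that of Chro 156 bp before Ssl1, so that both summits were upstream of the partner and downstream of the member. The fifth partner, CG42507, is annotated on the same strand from the same start as Trl, and without it 4 members had a partner. The fifth divergent neighbour was instead Mgat4a, 979 bp from the RF start of Trl. BEAF-32, CTCF, mod(mdg4), pita and ZIPIC had neither a partner at the main summit nor a divergent neighbour within 1000 bp.

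A core was present within 100 bp of the main summit in 9 of 10 members, against 65.2% of the bound genes. Around the outermost starts of all coding genes, a window of the same 201 bp held CGATA on either strand in 39.4%, and in 26.2% of the genes that were not bound. Of the members, 7 had 2 or more copies, against 45.1%. The members' main summits held 19 copies in all, counting both strands, of which 14 lay within 50 bp of the summit and 8 were the overlapping pairs of 4 Dref elements. The median distance from summit to copy was 27 bp, the nearest 1 bp, in Cp190, and the farthest 82 bp, in Trl.

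The median signal over all bound genes rose with each added copy, whereas members with 1 or 2 copies lay on both sides of the median for their number. With 3 copies each, BEAF-32, mod(mdg4) and Cp190 had signals of 8557, 6729 and 6634 in the IDR list, against a median of 3903 over the 1547 bound genes with 3 or more. With 2 copies, pita had 6946 and CTCF 4248, but ZIPIC had 570 and Trl 265, against a median of 2188 over 1199 genes. The 2 copies of pita and of CTCF are the overlapping strands of 1 palindrome, and those of ZIPIC and Trl are 2 separate sites. In mod(mdg4) and Cp190, 2 of the 3 copies are also the strands of 1 palindrome. Each of these 2 members thus has 2 separate sites, whereas BEAF-32 has 3. With 1 copy, Dref had 4063 and Chro 613, against a median of 960 over 1229 genes. With no copy, su(Hw) had 310, against a median of 435 over 2117 genes. BEAF-32, mod(mdg4) and Cp190 were above the upper quartile of 6530 for 3 or more copies, pita was above that of 4628 for 2 and Dref above that of 3190 for 1, while ZIPIC and Trl were below the lower quartile of 915 for 2.

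**Figure D4:**
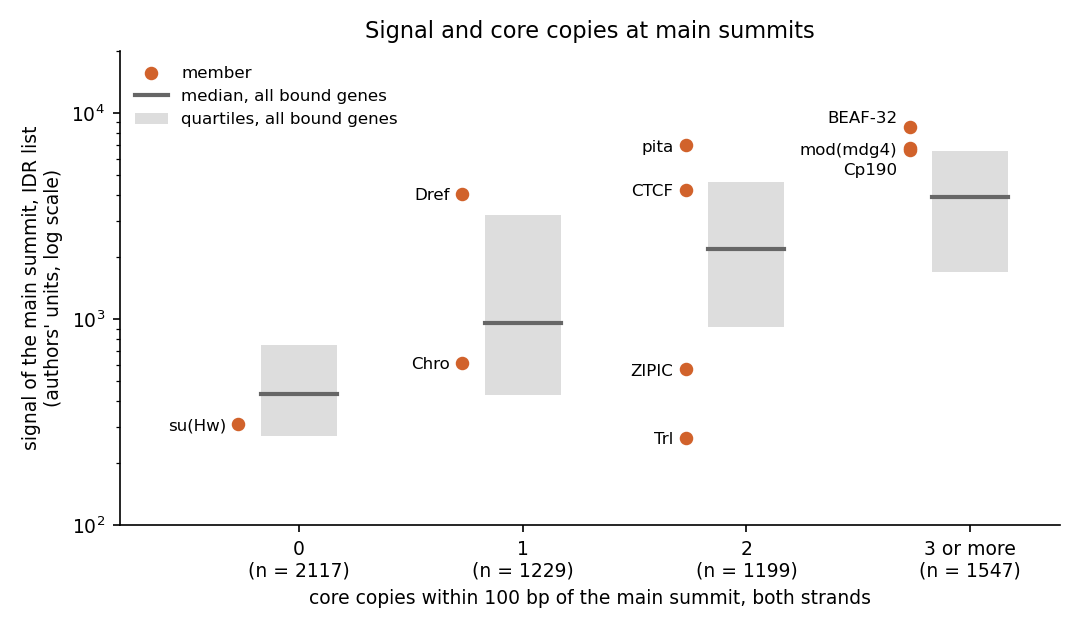
Signal of the main summit in the IDR list (log axis, authors' units) for each member (points) and for all bound genes (grey box from lower to upper quartile, line at the median), by core copies within 100 bp. ZIPIC and Trl lie below the box for 2 copies, and Dref, pita and all 3 members with 3 copies lie above theirs.

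The Dref element TATCGATA, read alike on both strands and containing CGATA, was found at the main summits of CTCF, Cp190, mod(mdg4) and pita, 4 of 10, against 20.6% of bound genes. It lay within 100 bp of the outermost start in 7.84% of all coding genes. Those 4 members had a median rank of 423.5, against 1135 for the 1256 bound genes with the element. The 6 members without it had a median rank of 3008, against 2661 for 4836 genes. BEAF-32 and Dref were the members without the element that ranked within the first 1500.

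The other strings were searched on both strands as fixed letters. GGTCACACT, a core promoter motif, was found at ZIPIC alone, against 10.3% of bound genes and 5.29% of all outermost starts. GAGAG, a string that the GAGA factor binds, was found at Dref alone, in 2 copies, against 14.1% of bound genes and 22.5% of all outermost starts, and the main summit of Trl held none. AGGTGGCG, from the CTCF motif, and TGCATACTT, from the Su(Hw) motif, were found at 0 of the 10 main summits, against 0.657% and 0.263% of bound genes. A match is only a match of letters in this window, and its absence says nothing about binding by the protein.

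Summits crowded around the BEAF-32 gene in the pooled relaxed list, which keeps weak ones. Within 10 kb of its outermost start the pooled relaxed list held 23 summits, more than for any other member, a lead also seen in replicate 2 but not in replicates 1 and 3. Cp190 had 20, pita 19, CTCF 18, Dref 16, Chro and ZIPIC 12 each, mod(mdg4) and Trl 10 each and su(Hw) 8. The median was 14 over the members and 8 over all coding genes, and 23 coding genes of 13945 had more than BEAF-32. The highest outside 20 kb of any member was 26, at qkr58E-3, followed by 25 at CG3803 and CG43062, which tied with others. The window around BEAF-32 held the starts of only 2 coding genes, itself included, whereas the median over all genes was 5.

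Of those 23 summits, 4 were in the IDR list and 19 were not, and 4 IDR summits was also the median of the members. The count depended on the library: replicates 1, 2 and 3 held 13, 25 and 16, with medians of 13, 16 and 11.5 over the members, and the numbers of genes with more were 848, 2 and 1063. In replicate 1 pita had 16 and Cp190 and ZIPIC had 14 each, all above BEAF-32, and in replicate 3 Cp190 had 17. Without replicate 2 the mean of the replicate lists was 14.5 at BEAF-32, against 20.5 without replicate 1 and 19 without replicate 3. In bins of 5 kb, the pooled summits ran from 20 kb before the start to 15 kb after it, and none was listed in the remaining bins out to 50 kb on either side. Chro had a bounded block too in that list, from 15 kb before its start to 20 kb after it. Each replicate list held further summits at BEAF-32 beyond the limits of the pooled block. Reads from BEAF-32 DNA within the tagged insertion cannot be told apart in these lists from those of the gene's own locus. Their part in the summit counts and in the ranks at BEAF-32 was not tested.

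**Figure D5:**
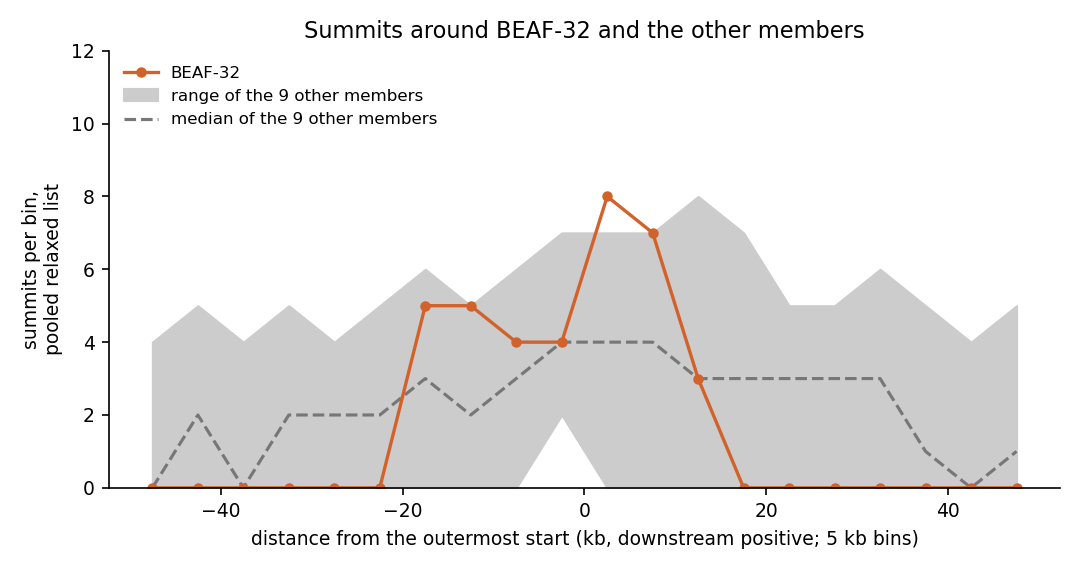
Summits of the pooled relaxed list per 5 kb bin around the outermost start of BEAF-32 (orange) and of the other members (grey range, dashed median), in kb with downstream positive. BEAF-32 reaches 8 summits in the bin after its start and 0 beyond 20 kb upstream and 15 kb downstream.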

How the data were processed

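The 3 replicates' relaxed lists, the pooled relaxed list and the IDR list, all on dm6, are the authors' own peak lists. Each was made by the authors from alignments of the sample and of a control, per the file headers of their README texts. The signal of each peak was deposited by the authors on a scale that is not stated, and the deposited −log10 q-value was not used. The aligner, the peak caller and their settings are not named in the labels or files used here, and the control and the dm3 lists were not analysed here. Ensembl release 115 (BDGP 6.54) gave the starts and the RefSeq genome of the same assembly the sequences. Python 3.11.15 with numpy 2.4.6, pandas 2.3.3 and matplotlib 3.10.9 was used, and the routines were tested on simulated data. Named genes are the 10 members with every summit from 1000 bp before to 1000 bp after each, the genes whose starts lie by those summits, and the 3 with the highest summit density elsewhere; the gene Polr2I and others appear as such partners. Strings were counted within 100 bp of a summit on both strands, and a partner gene has a start within 500 bp of it. Alternatives changed the windows, the lists, the start and summit rules and left out each replicate. The members and the strings were chosen with earlier results of these data known, and no p-value was computed. The labels call the replicates biological, and their SD is the only error given.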

Additional observations from a re-analysis of the deposited data

How the results depend on the processing

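The share of all coding genes bound, 43.7%, became 39.4% within 250 bp, 46.3% within 1000 bp, 28.5% with the strongest 50% of the IDR summits and 59.7% with the pooled relaxed list, while the members bound numbered between 7 and 10 under those settings. The share was 42.2% with the outermost start only and 43.6% without the pre-mod(mdg4) genes, an alternative chosen after seeing the data. The number of members with a partner gene fell to 3 within 250 bp and was 4 without partners that share the member's start, also chosen after seeing the data. The shares of all bound genes under those settings were not counted, and a narrower window holds fewer partners by construction. The members' median of 14 pooled summits within 10 kb was 8 within 5 kb and 29.5 within 20 kb, 11.5 in the relaxed list of replicate 3, and 4, 4.5 and 4 among the strongest summits of replicates 1, 2 and 3, as many as in the IDR list; wider windows and longer lists hold more summits by construction. Without each replicate in turn it ran between 11.75 and 14, the members bound in every replicate between 9 and 10, the mean number bound between 9.5 and 10, the median of the mean ranks between 879 and 1009, and the members with a core at the replicates' own summits between 8.5 and 9. At BEAF-32 the count within 10 kb ran between 14.5 and 20.5. With the strongest 50% of those summits, 6 members were bound in every replicate, against 24.4% of all coding genes. No paired analysis was possible because there is only 1 group. Read depth is unknown and limits what weak summits show.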
